A study of Mus musculus with 10 samples.

Results

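The vascular smooth muscle and pericyte genes were 10 of the 27267 genes listed for interscapular brown adipose tissue (iBAT), chosen by name as markers of the mural cells of blood vessels. They comprised 7 genes of contractile smooth muscle (Acta2, Myh11, Tagln, Cnn1, Myocd, Smtn and Lmod1) and 3 of pericytes (Pdgfrb, Rgs5 and Cspg4), and all 10 passed the filter on low values. The libraries came from 5 wild-type (WT) and 5 Mgp-KO mice, labelled as C57BL/6 males of 4 weeks. Per the study's methods, all mice were fed standard chow. Mgp-KO mice carry a global deletion of Mgp, which encodes matrix Gla protein, an inhibitor of bone morphogenetic proteins that is also known to prevent calcification of arteries. The deletion was not restricted to a cell type, and whole tissue was sequenced.

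Mural cells wrap the endothelium of blood vessels. Smooth muscle cells of arteries and veins contract through a cytoskeleton of smooth muscle actin and myosin, and pericytes sit on capillaries, where they are recruited by platelet-derived growth factor B from the endothelium acting on the receptor encoded by Pdgfrb. The contractile genes are known targets of serum response factor (SRF), which binds a DNA site named the CArG box together with its coactivator myocardin. In whole tissue, fewer mural cells and less RNA per mural cell cannot be told apart.

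The CArG box was searched in the 250 bases before the RefSeq start of each gene (GRCm38.p6), which were found for 6 of the 10 genes (Acta2, Cnn1, Smtn, Lmod1, Rgs5 and Cspg4). The site reads the same on both strands. None of the 6 held an exact match, and Acta2 alone held near matches, which differed from the site by 1 base of its A/T core. Of all 32851 promoter windows, 1.47% held an exact match, 8.59% an exact or near match, and 0.670% 2 or more of them. The matches of Acta2 are shown because it is the most abundant contractile gene here, and those of Filip1l, Myl9, Synm and Vcl because they are the 4 of 18 genes with a window in the wider contractile list that held one. Capitals mark the match. A match describes the letters and not binding.
Acta2, chr19:34255438-34255467, minus strand, match 84 bases before the start: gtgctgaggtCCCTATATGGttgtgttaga
Acta2, chr19:34255388-34255417, minus strand, match 34 bases before the start: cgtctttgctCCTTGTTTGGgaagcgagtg
Filip1l, chr16:57549170-57549199, plus strand, match 62 bases before the start: atgccgcgcgCCTTATAAGGctgagcggtg
Myl9, chr2:156775293-156775322, plus strand, match 161 bases before the start: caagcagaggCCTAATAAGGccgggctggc
Myl9, chr2:156775355-156775384, plus strand, match 99 bases before the start: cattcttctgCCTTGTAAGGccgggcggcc
Synm, chr7:67759962-67759991, minus strand, match 239 bases before the start: caacggggagCCTCATAAGGtgtcccagat
Vcl, chr14:20929161-20929190, plus strand, match 227 bases before the start: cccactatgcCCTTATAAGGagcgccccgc
The matches of Filip1l and Vcl and the first of Myl9 are exact, and the others differ by 1 core base. GENCODE places the start of Acta2 217 bases further upstream, so both of its matches lie in the annotated 5′ untranslated exon there, and the Synm match lies in an exon of Gm45102 on the opposite strand.

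Some libraries went against their labels. Mgp was at 576, 489, 466, 1146 and 839 normalized counts in WT 1 to 5 and at 0 to 0.821 in Mgp-KO 1 to 3 (0 or 1 read), but at 500.2 and 331 in Mgp-KO 4 and 5 (309 and 282 reads). WT 2, labelled male, had 5094 normalized counts of Xist against 0.754 to 44.0 in the other 9 libraries. Replicates 4 and 5 of both groups also stood apart, with 9253793 to 13281873 reads on genes and 6.50% to 16.7% of them on mitochondrial ribosomal RNA, against 19616366 to 22252260 reads and 0.771% to 1.72% in replicates 1 to 3. All labels were kept, and results are given over all 10 libraries and within each set. All 12 brown adipocyte markers had reads, and 11 had negative log2 fold changes, while 52.7% of all genes tested had positive ones. Their sum was 238370.0 to 259406 normalized counts in WT 1 to 3 and 168530.0 to 206270.0 in Mgp-KO 1 to 3, and 418297 to 423540.0 in WT 4 and 5 against 216015 to 310089 in Mgp-KO 4 and 5, so the groups did not overlap within either set. Of single genes tested, 30.6% did not overlap within replicates 1 to 3 and 41.6% within replicates 4 and 5. Ucp1, which encodes the uncoupling protein of brown fat, was at 38421 to 116019 in WT and 2201 to 15641 in Mgp-KO (log2 fold change -2.70, adjusted p = 0.0601, limma, and 0.0127 with a term for the sets). The part of the adipocyte markers in the results below was not tested.

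To see whether mural cell genes differed after Mgp deletion, the 5 libraries labelled Mgp-KO were compared with the 5 WT libraries. None of the 10 genes passed the threshold of an adjusted p under 0.05 with limma, where 0.0656% of the 13714 genes tested were called. Nor did any pass with edgeR (0.0219% of genes called) or DESeq2 (2.73%). With a term for the sets none was called by limma (2.36% of genes called), edgeR (2.49%) or DESeq2 (8.74%). None was called by limma without Mgp-KO 4 and 5 (1.95%) or without WT 2, where 0 of all genes were called. By each of the 3 tools, 3 of the 10 had an unadjusted p under 0.05, against 10.4% of all genes with limma: Smtn and Lmod1 with higher values, and Cspg4 with lower values, in the libraries labelled Mgp-KO. The 7 contractile genes all had positive log2 fold changes, with a median of 0.27, and the 3 pericyte genes all had negative ones, with a median of -0.16, where the median of all genes was 0.03 and 52.7% were positive. Leaving out 1 library moved the contractile median to between 0.12 (without Mgp-KO 4) and 0.42 (without WT 1), and the pericyte median to between -0.35 (without WT 3) and -0.11 (without Mgp-KO 4). Cnn1 turned negative without Mgp-KO 4 or WT 3, and Pdgfrb positive without Mgp-KO 4, Mgp-KO 5 or WT 1. Over all 10 libraries, the groups overlapped for each of the 10 genes, while 3.50% of all genes did not overlap.

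**Figure D1:**
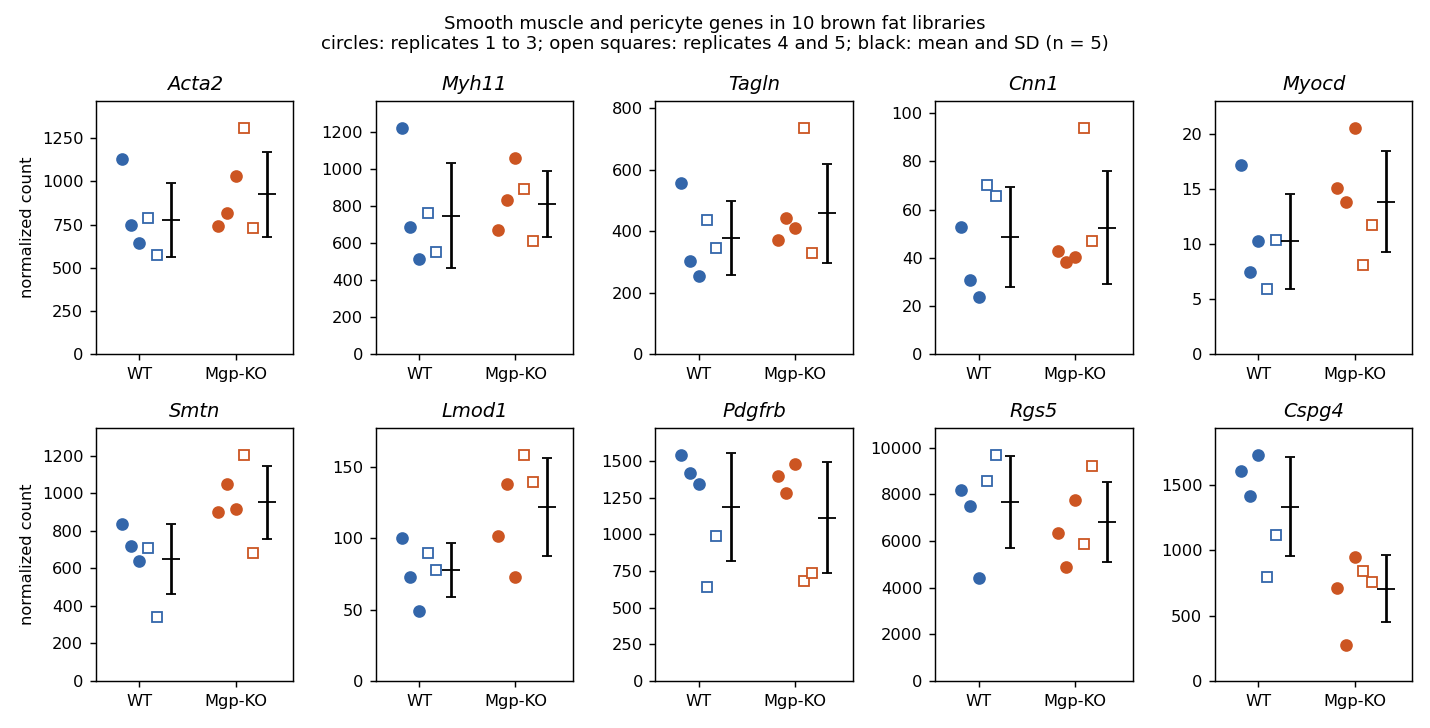
Normalized counts of the 10 genes (y axis, from 0) in the WT and Mgp-KO libraries (x axis), with circles for replicates 1 to 3, open squares for replicates 4 and 5, and the mean and SD of 5 libraries in black. The groups overlap in every panel, and Cspg4 has its 3 highest values in WT 1 to 3.

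Among the structural genes of the contractile cytoskeleton, Acta2, the smooth muscle α-actin, had 1130.3, 749, 645, 790.0 and 571 normalized counts in WT 1 to 5 and 742, 815, 1033, 1309.6 and 730.4 in Mgp-KO 1 to 5. WT 1 and Mgp-KO 3 and 4 were high, and the other 7 libraries of both groups mixed. Its log2 fold change was 0.26 (SE 0.23, 95% confidence interval -0.25 to 0.76), with an adjusted p of 0.756 by limma. Myh11, the smooth muscle myosin heavy chain, had 1222, 687, 515, 764 and 552 in WT and 668, 832, 1057, 890.3 and 613 in Mgp-KO. Its highest and its lowest library were both WT, and its log2 fold change was 0.16 (SE 0.25, 95% confidence interval -0.39 to 0.71), with an adjusted p of 0.867 by limma. For both genes the interval lay within -1 to 1 on the log2 scale.

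Tagln encodes transgelin, an actin-binding protein, and had 559, 305, 253, 435 and 344 normalized counts in WT and 370.1, 443, 411, 737 and 329 in Mgp-KO. Mgp-KO 4 was far above the others of its group, and the remaining libraries overlapped. This gave Tagln a log2 fold change of 0.27 (SE 0.27, 95% confidence interval -0.32 to 0.85), with an adjusted p of 0.782 by limma. The counting was not stated to use strand, and 67.9% of the exonic bases of Tagln are shared with Pcsk7 and Gm48529 on the opposite strand, so its reads cannot be assigned with certainty. Cnn1, which encodes the actin-binding calponin 1, had 52.9, 30.7, 23.5, 70.4 and 65.8 in WT and 43.0, 38.2, 40.2, 93.9 and 46.9 in Mgp-KO. The groups overlapped, again with Mgp-KO 4 highest. For Cnn1 the log2 fold change was 0.14 (SE 0.37, 95% confidence interval -0.67 to 0.94), with an adjusted p of 0.930 by limma, and it was -0.034 within replicates 4 and 5 and -0.14 without Mgp-KO 4 and 5.

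Smtn, which encodes the actin-associated protein smoothelin, had 837, 721, 639, 708 and 341 normalized counts in WT and 898, 1049.5, 918, 1204 and 683 in Mgp-KO. WT 5 was the lowest of all and Mgp-KO 4 the highest, and Mgp-KO 5 was the only library of its group within the WT range. The log2 fold change was 0.59 (SE 0.25, 95% confidence interval 0.03 to 1.14), a fold of 1.50, with an unadjusted p of 0.0393 and an adjusted p of 0.446 by limma (exact permutation p = 0.0317, two-sided). Without WT 5 it was 0.37, and the interval included 0 when any of WT 3, WT 5 or Mgp-KO 1 to 4 was left out. Smtn did not overlap between the groups within replicates 1 to 3, where 30.6% of all genes did not, and its log2 fold change there was 0.39 (adjusted p = 0.161, limma). Of its exonic bases, 17.2% are shared with Gm11946 and Gm11947 on the opposite strand.

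Lmod1, which encodes the actin filament nucleator leiomodin 1, had 100.2, 72.6, 49.3, 89.4 and 77.9 in WT and 102, 138, 73.1, 159 and 139.5 in Mgp-KO. Mgp-KO 1, 2, 4 and 5 lay above every WT library, though Mgp-KO 1 by little, while Mgp-KO 3 lay within the WT range. Lmod1 had a log2 fold change of 0.63 (SE 0.27, 95% confidence interval 0.05 to 1.22), a fold of 1.55, with an unadjusted p of 0.0369 and an adjusted p of 0.435 by limma (exact permutation p = 0.0476). The interval included 0 when any of WT 2, 3 or 5 or Mgp-KO 2, 4 or 5 was left out. Replicates 1 to 3 alone gave 0.50, and leaving out only Mgp-KO 4 and 5 gave 0.41. Replicates 4 and 5 alone gave 0.83, and there the groups did not overlap, as was so for 41.6% of all genes. Myocd, the coactivator of SRF, was the least abundant of the 10, with 17.2, 7.49, 10.3, 5.86 and 10.4 in WT and 15.1, 13.8, 20.5, 8.09 and 11.7 in Mgp-KO. These values rest on 4 to 25 reads per library, and they overlapped. For Myocd the log2 fold change was 0.42 (SE 0.42, 95% confidence interval -0.48 to 1.33), which includes 0 and 1 (adjusted p = 0.777, limma).

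Of the pericyte genes, Cspg4, which encodes the proteoglycan NG2, showed the largest difference of the 10 in size. It had 1610.3, 1417, 1732, 796 and 1119.6 normalized counts in WT and 711, 277, 947, 839 and 755 in Mgp-KO. WT 4, the lowest of its group, lay within the range of the Mgp-KO libraries, the other 4 WT libraries lay above all of them, and Mgp-KO 2 was the lowest of all. The means were 1335 ± 379.9 in WT and 706 ± 256 in Mgp-KO (SD, n = 5 each). The log2 fold change was -0.98 (SE 0.34, 95% confidence interval -1.71 to -0.24), a fold of 0.507, with an unadjusted p of 0.0133 and an adjusted p of 0.310 by limma (exact permutation p = 0.0238, two-sided), so the difference did not pass the threshold over all genes. Without Mgp-KO 2 the log2 fold change was -0.67.

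Within replicates 1 to 3, in which Mgp reads matched the labels, Cspg4 did not overlap between the groups, as was so for 30.6% of all genes. In this set its log2 fold change was -1.47, with an adjusted p of 0.0961 by limma (3.54% of all genes called). DESeq2 within the same 6 libraries gave -1.31 with an adjusted p of 0.00503, which made Cspg4 the only gene of the 10 called in any setting, where 10% of all genes were called. An exact permutation test cannot go below 0.1 with 3 against 3 libraries, and it gave 0.1 for both Cspg4 and Smtn. Leaving out WT 2 as well gave -1.55 with an adjusted p of 0.247 by limma. Within replicates 4 and 5 the log2 fold change of Cspg4 was -0.25, and the difference between the sets was 1.22 (SE 0.59, adjusted p = 0.483 for the interaction by limma). No interaction was called among the 10 genes, 0 had an unadjusted p under 0.05, and edgeR and DESeq2 called none either (0.00729% of all genes called by limma).

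Cspg4 is also expressed by glial and progenitor cells, so the marker lists of other cells were set beside it. The summed level of 8 Schwann cell genes, of which 7 had negative log2 fold changes over all libraries and all had reads, was 2243 to 3356 normalized counts in WT 1 to 3 and 1340.2 to 1522 in Mgp-KO 1 to 3. In replicates 4 and 5 it was 2750 to 3252 in WT and 3610 to 3788 in Mgp-KO. The sum of 10 fibroblast and progenitor genes was 24384 to 49309 in WT 1 to 3 and 11332 to 23283 in Mgp-KO 1 to 3, and overlapped in replicates 4 and 5. The most abundant genes of the latter sum were the collagen genes Col3a1 and Col1a1. Col1a1 was at 6902 to 17433 in WT 1 to 3 and 2787 to 6158 in Mgp-KO 1 to 3, while Dcn was at 2062 to 2370.0 and 2451 to 4004. Over all libraries 7 of the 10 had negative log2 fold changes, and Dcn and Cd34 had 0.62 and 0.40. Both sums, like Cspg4, were lower in Mgp-KO 1 to 3 than in WT 1 to 3. In Mgp-KO 4 and 5 Cspg4 was at 839 and 755, against 796 and 1119.6 in WT 4 and 5. There the Schwann cell sum was higher in Mgp-KO. The part of both sums in the Cspg4 result was not tested.

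Pdgfrb, the receptor for platelet-derived growth factor B, had 1542, 1418, 1345, 638 and 992 normalized counts in WT and 1397, 1284, 1476, 678 and 733 in Mgp-KO. Replicates 4 and 5 were low in both groups, and within each set the groups overlapped. The log2 fold change was -0.10 (SE 0.31, 95% confidence interval -0.77 to 0.57), with an adjusted p of 0.944 by limma, and within replicates 1 to 3 it was -0.05 (95% confidence interval -0.31 to 0.21). Rgs5, a regulator of G-protein signalling that marks pericytes, was the most abundant of the 10, with 8194, 7511, 4402, 8560.0 and 9701 in WT and 6329, 4884, 7758, 5875 and 9235 in Mgp-KO. WT 3 was the lowest and WT 5 the highest of all libraries. Its log2 fold change was -0.16 (SE 0.26, 95% confidence interval -0.72 to 0.41), with an adjusted p of 0.876 by limma.

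**Figure D2:**
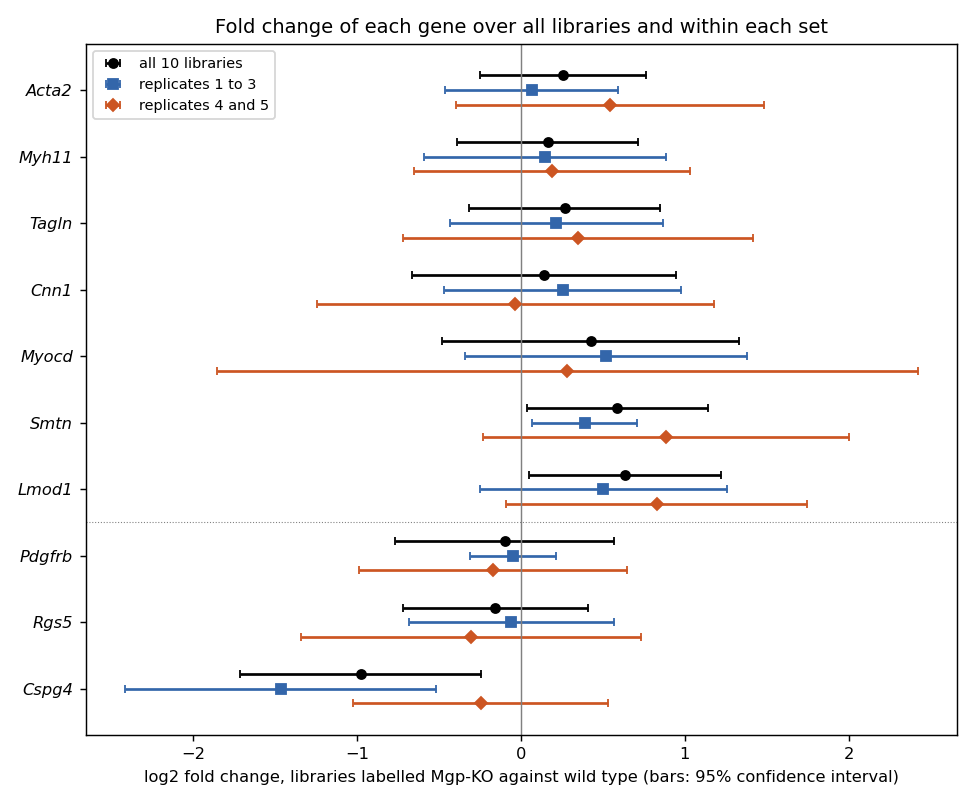
Log2 fold change of the libraries labelled Mgp-KO against WT (x axis) for each gene (y axis), with 95% confidence intervals from limma, over all 10 libraries (black circles), within replicates 1 to 3 (blue squares) and within replicates 4 and 5 (orange diamonds). Only Smtn, Lmod1 and Cspg4 have an interval over all libraries that leaves out 0, before adjustment over all genes.

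The 3 pericyte genes did not keep the same proportions in all libraries. The ratio of Cspg4 to Pdgfrb was 1.04, 0.999, 1.29, 1.25 and 1.13 in WT 1 to 5 and 0.509, 0.216, 0.641, 1.24 and 1.03 in Mgp-KO 1 to 5. Mgp-KO 1 to 3 were below all WT libraries, while Mgp-KO 4 and 5 were within the WT range. Mgp-KO 4 and 5 hold Mgp reads and also form the Mgp-KO part of the other set, so Mgp reads and set cannot be told apart here. The exact permutation p over 5 against 5 was 0.0714, and within replicates 1 to 3 it was 0.1, the smallest possible. The ratio of Cspg4 to Acta2 was 1.79 ± 0.630 in WT and 0.777 ± 0.286 in Mgp-KO (SD, n = 5 each, exact permutation p = 0.0159). Among the contractile genes, Myh11 was at 0.680 to 1.08 and Tagln at 0.392 to 0.603 of the Acta2 count in the 10 libraries. Their exact permutation p-values between the genotypes were 0.5 and 0.905. From the lowest to the highest library, the ratio to Acta2 spanned 1.59-fold for Myh11 and 1.54-fold for Tagln. It spanned 2.16-fold for Smtn, 2.70-fold for Lmod1, 3.16-fold for Cnn1 and 3.29-fold for Myocd. The ratio of Pdgfrb to Rgs5 spanned 4.10-fold, with an exact permutation p of 0.865. Adjusted over the 12 ratios computed, the p-values were 0.317 for Cspg4 to Pdgfrb and 0.190 for Cspg4 to Acta2, so neither passed.

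To compare levels between genes, normalized counts were divided by exonic length. On this scale, in normalized counts per kilobase as the mean of 10 libraries, Rgs5 was at 1594, followed by Acta2 at 388, Tagln at 211, Pdgfrb at 210.0, Smtn at 183, Myh11 at 103, Cspg4 at 85.5, Lmod1 at 25.3, Cnn1 at 18.5 and Myocd at 1.87. Rgs5, Acta2, Smtn and Cnn1 were above the next gene in all 10 libraries, and Cspg4 and Lmod1 in 9 and 8. The neighbours Tagln and Pdgfrb (Tagln higher in 3 of 10), Pdgfrb and Smtn (6 of 10) and Myh11 and Cspg4 (7 of 10) were not in a steady order. From the lowest to the highest library, Cspg4 spanned the widest range, 6.25-fold, and Rgs5 the narrowest, 2.20-fold.

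The sets themselves were compared next, since replicates 4 and 5 differed from replicates 1 to 3 in depth and mitochondrial ribosomal RNA. With genotype in the model, 2 of the 10 genes were called by limma, where 38.2% of all genes were. Pdgfrb ranged from 1284 to 1542 normalized counts in replicates 1 to 3 and from 638 to 992 in replicates 4 and 5, and the sets did not overlap (as for 25.2% of all genes). Its log2 difference was -0.91 (SE 0.14, adjusted p = 7.59e-04, limma). Cnn1 was higher in replicates 4 and 5 by 0.85 on the log2 scale (SE 0.27, adjusted p = 0.0299, limma), with 46.9 to 93.9 against 23.5 to 52.9 normalized counts. The Cnn1 call was lost, with adjusted p-values from 0.0527 to 0.0775 by limma, when any of WT 2, 3, 4 or 5 or Mgp-KO 3 or 4 was left out. Which property of these libraries goes with the differences cannot be told apart.

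Over the 10 libraries, with the set means subtracted from the log2 levels, the levels of the members were compared in pairs. All 21 pairs of contractile genes had a positive Pearson's r, with a median of 0.591 (median Spearman's rho 0.588), and within replicates 1 to 3 the median r was 0.722. Over all pairs of tested genes 49.9% were positive. Without the 2 libraries farthest from the median of the first gene, 20 of the 21 were positive. The 6 pairs with Myocd had the lower values, from 0.04 with Smtn to 0.36 with Myh11, and none of them passed. Acta2 and Myh11 had an r of 0.884 and a rho of 0.939, with permutation p-values of 5.79e-05 and 1.16e-04, and their r was 0.894 without the 2 libraries farthest from the median of Acta2. Of all 45 pairs of the 10 genes, 5 had an adjusted p under 0.05 for r in an exact permutation test within the sets, and these were Acta2 with Myh11, Acta2 with Tagln, Myh11 with Tagln, Tagln with Cnn1, and Smtn with Lmod1. For rho there were 4, which were Acta2 with Myh11, Acta2 with Tagln, Tagln with Cnn1, and the pericyte pair Pdgfrb with Rgs5. The last pair had a rho of 0.745 (adjusted p = 0.0469, permutation test) and an r of 0.563 (adjusted p = 0.261, permutation test).

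The pericyte genes had r of 0.306 to 0.563 among their 3 pairs, and the 21 pairs of a contractile with a pericyte gene had a median r of -0.15, of which 5 were positive. The latter median was 0.141 within replicates 1 to 3, so its sign was not steady. Smtn and Pdgfrb had the lowest r, -0.73 (permutation p = 0.156), which was -0.17 without the 2 libraries farthest from the median of Smtn and -0.10 within replicates 1 to 3. All libraries of a set share its depth and scaling, and libraries of both genotypes entered each r.

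**Figure D3:**
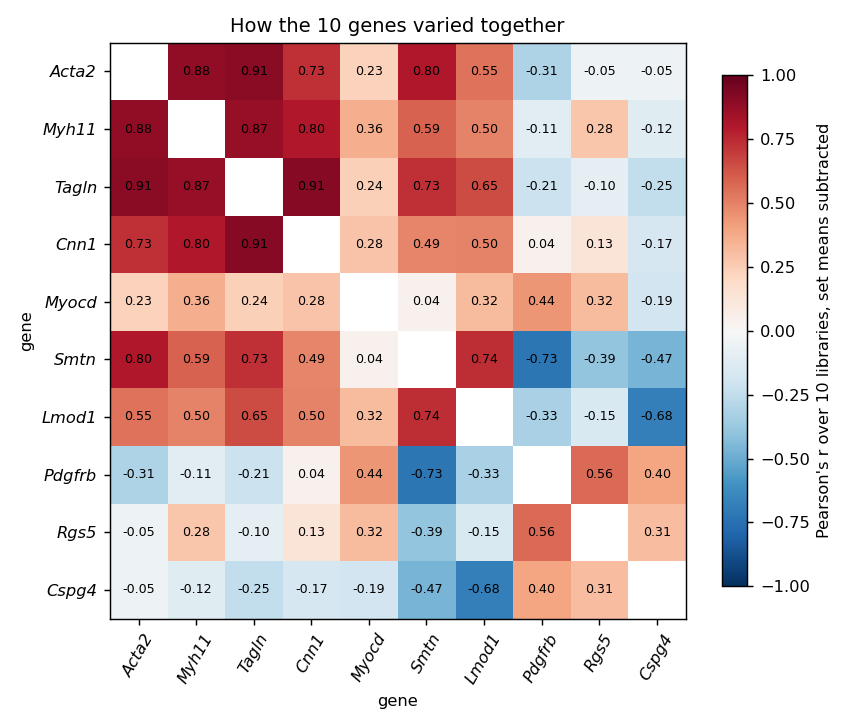
Pearson's r of the log2 levels of each pair of the 10 genes over 10 libraries, after subtracting the mean of each set (replicates 1 to 3, replicates 4 and 5), from blue for -1 to red for 1. The block of 7 contractile genes at the upper left holds positive values only, from 0.04 to 0.91.

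The genes whose levels were most like the mean profile of the contractile genes were Gm9892 (r = 0.955, rho = 0.952), Rfwd2 (r = 0.947, rho = 0.952), Gm44567 (r = 0.929, rho = 0.952), Kcnq1ot1 (r = 0.920, rho = 0.903) and 9630010A21Rik (r = 0.912, rho = 0.915), each over 10 libraries and chosen from all genes tested. Kcnq1ot1, a nuclear noncoding RNA, had 42.6 to 749 normalized counts in WT and 100.2 to 3301 in Mgp-KO, with Mgp-KO 4 highest. Mgp-KO 4 was also the library with the highest share of mitochondrial ribosomal RNA, 16.7%, and without it the median r of the contractile pairs was 0.524, with all 21 still positive. Most like the pericyte profile were Xxylt1 (r = 0.951, rho = 0.891), Fam49a (r = 0.951, rho = 0.976), Epb41l2 (r = 0.937, rho = 0.915), Gm10767 (r = 0.932, rho = 0.879) and 4933431E20Rik (r = 0.931, rho = 0.939).

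The wider set of contractile genes was examined in the same way. Of 20 such genes, 19 were tested and none was called by limma over all libraries, nor by edgeR. By limma 2 had an unadjusted p under 0.05, against 10.4% of all genes. DESeq2 called 1, where 2.73% of all genes were called. Log2 fold changes were positive for 15 and negative for 4, with a median of 0.26 against 0.03 for all genes. Without Mgp-KO 4 they were positive for 12 and negative for 7, with a median of 0.07, and within replicates 1 to 3 positive for 10 and negative for 9, with a median of 0.14. Synm, which encodes the intermediate filament protein synemin, had 514, 579, 653, 779.8 and 467 normalized counts in WT and 1265, 2498, 1108, 1162 and 877 in Mgp-KO. All 5 Mgp-KO libraries were above all 5 WT libraries, with a log2 fold change of 1.13 (SE 0.27, adjusted p = 0.127, limma). It was called by DESeq2 (adjusted p = 0.00444), and by limma with a term for the sets (adjusted p = 0.0411) or within replicates 1 to 3 (log2 fold change 1.39, adjusted p = 0.0485, and 0.180 without WT 2).

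Tpm1, which encodes tropomyosin 1, was the other gene of this list whose groups did not overlap, at 1043 to 1300.5 normalized counts in WT and 1485 to 3933 in Mgp-KO (log2 fold change 0.72, adjusted p = 0.343, limma). Of the 19 genes tested 2 did not overlap, against 3.50% of all genes. Synemin and tropomyosin are also found in skeletal muscle, and the sum of 12 skeletal muscle genes ranged from 71.1 to 6560 in WT and from 63.2 to 45621 in Mgp-KO, all 12 having reads. It was highest in Mgp-KO 2 and 5, which hold the highest Synm and the highest Tpm1 value. In Mgp-KO 1 and 3 the skeletal muscle sums were 64.1 and 63.2. There Synm was at 1265 and 1108 and Tpm1 at 1577 and 1485, each above its WT range. The part of the skeletal muscle genes in these results was not tested. Ppp1r12b, a subunit of myosin phosphatase, had a log2 fold change of 0.41. Flna, which encodes the actin cross-linking protein filamin A, had a log2 fold change of -0.03, which turned positive in some settings. Of the genes with an exact CArG match, Filip1l and Vcl had log2 fold changes of -0.15 and -0.14 (adjusted p = 0.941 and 0.864, limma), and the light chain gene Myl9 was at 465 ± 110.1 in WT and 516 ± 234 in Mgp-KO (SD, n = 5 each).

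Of 13 regulators of smooth muscle and mural cell identity besides Myocd, 12 were tested and none was called by limma, edgeR or DESeq2. By limma 1 gene had an unadjusted p under 0.05, against 10.4% of all genes. That gene was Nr2f2, a transcription factor of veins, with 320.5, 305, 297, 509 and 308 normalized counts in WT and 392, 666, 357, 1189.8 and 533 in Mgp-KO, where Mgp-KO 4 was highest (log2 fold change 0.74, adjusted p = 0.430, limma, and 0.47 on the log2 scale without Mgp-KO 4). Foxo4 had a log2 fold change of 0.29, Foxc1 of 0.74 and Mkl2, a coactivator of SRF, of 0.20. Klf4, known to repress contractile genes, was at 1432, 1169.5 and 969 in WT 1 to 3 and 574, 449.8 and 504 in Mgp-KO 1 to 3, and fell by 1.21 on the log2 scale within these replicates (adjusted p = 0.0187, limma, and 0.102 without WT 2). Klf4 is an immediate early gene, and in WT 4 and Mgp-KO 4 it reached 3018 and 4084, and its log2 fold change over all libraries was -0.47 (SE 0.64).

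Among 16 further pericyte genes, none was called by limma or edgeR over all libraries. DESeq2 called 2, where 2.73% of all genes were called. By limma 3 had an unadjusted p under 0.05, against 10.4% of all genes. Log2 fold changes were negative for 10 and positive for 6, with a median of -0.14. The sign of this median was not steady, since it was 0.01 without Mgp-KO 2, 0.12 within replicates 4 and 5 and 0.14 without Mgp-KO 4 and 5. Vtn, which encodes vitronectin, an adhesion protein of brain pericytes and of plasma, had 140.2, 158, 162, 164 and 202 normalized counts in WT and 91.9, 74.97, 108, 87.4 and 82.1 in Mgp-KO. Vtn was the only 1 of the 16 genes whose groups did not overlap, against 3.50% of all genes. Its means were 165 ± 22.8 in WT and 88.8 ± 12.3 in Mgp-KO (SD, n = 5 each), and its log2 fold change was -0.89 (SE 0.18, adjusted p = 0.0741, limma). It passed with DESeq2 (adjusted p = 6.07e-04) and with the term for the sets (adjusted p = 0.0197, limma). Gja4, the connexin 37 gene of arterial cells, was at 86.6, 68.1, 89.7, 79.2 and 77.9 in WT and 194, 339.6, 184, 179.7 and 82.1 in Mgp-KO, where only Mgp-KO 5 was within the WT range (log2 fold change 1.15, adjusted p = 0.200 by limma and 0.00854 by DESeq2).

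Ebf1, a transcription factor of pericytes and adipocyte precursors, had a log2 fold change of 1.11 (adjusted p = 0.329, limma), and passed with the term for the sets (adjusted p = 0.0434, limma) and within replicates 1 to 3 (log2 fold change 1.04, adjusted p = 0.0249, limma, and 0.0844 without WT 2). Without Mgp-KO 4 and 5, limma called Synm (log2 fold change 1.37, adjusted p = 0.0421) and Gja4 (1.51, adjusted p = 0.0183), while Vtn had -0.85 with an adjusted p of 0.0652 and Ebf1 0.66 with an adjusted p of 0.279. Aoc3, an amine oxidase also abundant in adipocytes, had -0.62 and Art3 had 0.33, neither called by limma in these fits. Vtn fell and Ebf1 rose with the term for the sets, while the defining Rgs5 and Pdgfrb were not called in any comparison of the genotypes.

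**Figure D4:**
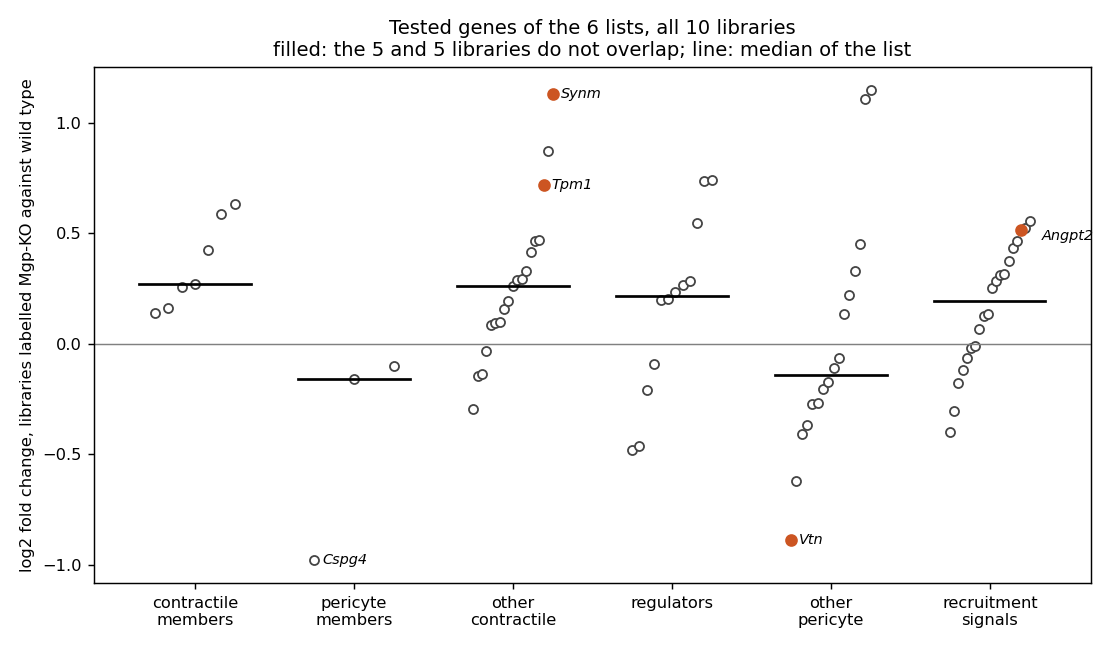
Log2 fold change of the libraries labelled Mgp-KO against WT over 10 libraries (y axis) for each tested gene of 6 lists (x axis). Filled points mark genes whose 5 and 5 libraries do not overlap (Synm, Tpm1, Vtn and Angpt2), and horizontal lines the median of each list, from -0.16 for the 3 pericyte genes to 0.27 for the 7 contractile genes.

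Signals that recruit mural cells to endothelium were the last list. All 20 genes were tested, and none was called by limma, edgeR or DESeq2. By limma 1 gene had an unadjusted p under 0.05, against 10.4% of all genes. It was Angpt2, an endothelial ligand that destabilizes vessels, with 49.4, 53.9, 51.5, 45.4 and 32.9 normalized counts in WT and 87.4, 55.8, 77.2, 58.3 and 57.4 in Mgp-KO. The groups did not overlap, and the log2 fold change was 0.52 (SE 0.23, adjusted p = 0.475, limma). It was the only 1 of the 20 genes without overlap, against 3.50% of all genes. The next genes by unadjusted p were Tgfb1, with a log2 fold change of 0.46 (adjusted p = 0.599, limma), and the sphingosine phosphate receptor gene S1pr3, with -0.40 (adjusted p = 0.641, limma). The most abundant of the list, Tgfbr2, S1pr1 and the angiopoietin receptor gene Tek, had -0.01 (SE 0.33), 0.52 (SE 0.46) and 0.12 (SE 0.35). S1pr1 rested on Mgp-KO 4, without which it was 0.09. Pdgfb, the ligand of Pdgfrb, was at 785 ± 415 in WT and 1001 ± 540.1 in Mgp-KO (SD, n = 5 each), with a log2 fold change of 0.37 (adjusted p = 0.791, limma). The summed level of 10 endothelial genes, all with reads, was 16681 to 27846 normalized counts in WT and 20370 to 51629 in Mgp-KO. Over all libraries all 10 had positive log2 fold changes, with a median of 0.42 and none called by limma. Within replicates 1 to 3 the median was 0.22, and Tek, Emcn and Vwf had -0.20, -0.06 and -0.08. The part of the endothelial genes, of which Tek is one, in the values of Angpt2, Pdgfb and Gja4 was not tested.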

How the data were processed

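RNA of iBAT from 5 WT and 5 Mgp-KO mice was analysed. Per the study's methods, the authors used STAR for alignment to mm10 and for counting by gene, and deposited these counts after division by DESeq2 size factors, a signal in the unit of normalized counts. The annotation and strand setting were not given in the sources used here. The smallest step in each library was taken as 1 read. Every value (100%) was then whole within 0.01 reads, and 9253793 to 22252260 reads were recovered. A count of 0 allows up to 3 reads, which covers counting error only. All per-sample columns were used.

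limma 3.58.1 (R 4.3.3) with a mean-variance trend was run on log2(normalized count + 1) for 13714 genes with a mean of at least 10, with Benjamini-Hochberg adjustment over all of them and no block. Fold changes of low genes are understated on this scale. edgeR 4.0.16 and DESeq2 1.42.0 were run on recovered reads as alternatives, and single values were compared by two-sided exact permutation tests. Exonic lengths and overlaps came from GENCODE M21 on GRCm38. On simulated counts for 13714 genes, 200 of them given a log2 change of 2, limma without a set term found 97.0% of these when both sets were drawn alike and 69.5% when the sets were made to differ. The interaction test found 25.5%. Every simulated gene had the same dispersion. Over all libraries, the 10 genes had log2 fold changes smaller than 2 in size, so these shares do not apply to them.

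The members and gene lists were chosen with earlier results of these data known. Named were all members, the genes of each other list past the threshold or else the 3 with the smallest p and the 3 with the largest mean, Mgp, and the 5 genes most like each member profile. Of the genes this rule names, 1 is not reported here. Myl9, Filip1l, Vcl, Ucp1, Col3a1, Col1a1, Dcn, Cd34, Emcn, Vwf, Pdgfb and Xist were named after their values were seen. Per the study's methods the libraries came from pairs of mice, and its legends give 5 mice per group. Tcf21 of the regulator list was not matched to a listed symbol.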

Additional observations from a re-analysis of the deposited data

Results flagged for a closer look

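Of the 10 genes and the medians of their groups, 22 groups of 5 libraries were examined for a library far from the rest, of which chance would mark about 1 in 20. Both groups that were marked had the same library at the top. Tagln in Mgp-KO 4 was at 737 normalized counts, where the next highest library of that group was at 443 and the lowest at 329, a gap of 0.721 of the range against a critical value of 0.71. Cnn1 in Mgp-KO 4 was at 93.9, where the next was at 46.9 and the lowest at 38.2, a gap of 0.845 of the range. Mgp-KO 4 had the fewest reads on genes, 9253793, the highest share of mitochondrial ribosomal RNA, 16.7%, and Mgp reads against its label.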

How the results depend on the processing

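Members called stayed at 0 in 27 of 28 other settings and was 1 with DESeq2 within replicates 1 to 3, a setting added after seeing the data, as were DESeq2 within replicates 4 and 5, edgeR with a set term, and replicates 1 to 3 without WT 2. Within replicates 4 and 5, limma called 0 of all 13714 genes. It also called 0 of them without Mgp-KO 1, Mgp-KO 3, WT 2, WT 3 or WT 5. The absence of called members in these settings therefore says nothing particular about them. The median log2 fold change ranged from 0.12 to 0.45 for the contractile and from -0.35 to -0.06 for the pericyte genes. Other contractile genes called were 1 with DESeq2, the set term, edgeR with the set term, within replicates 1 to 3 and without Mgp-KO 4 and 5, and 2 with DESeq2 with the set term or within replicates 1 to 3. Regulators called were 2 with DESeq2 with the set term, and 1 within replicates 1 to 3 by limma and by DESeq2. Other pericyte genes called were 2 with DESeq2, the set term and within replicates 1 to 3. They were 3 with the set term in DESeq2 and edgeR, 4 with DESeq2 within replicates 1 to 3, and 1 without Mgp-KO 4 and 5. Calls over all 13714 genes also differed between these settings. DESeq2 called 374 of them, 1198 with the set term and 1377 within replicates 1 to 3. By limma 324 were called with the set term, 486 within replicates 1 to 3 and 267 without Mgp-KO 4 and 5. With the set term edgeR called 341. Whether the lists differed from all genes in these counts was not tested. Members called between the sets were 1 without a filter, and 1 to 2 when 1 library was left out, Cnn1 being the gene lost. The cause was not tested.

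The replicate block gave 0 members, 1 other contractile gene and 2 other pericyte genes called, and 0 regulators and recruitment genes. Over all genes 270 were called with it against 9 without. After the group means were subtracted, libraries of the same number correlated at 0.0559 to 0.527, and 2 of 5 WT libraries correlated best with their own number. These values still carry the difference between the sets. With the set means subtracted as well, same-number values were -0.398 to 0.223. The numbers were therefore not taken to pair the libraries.

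The sign of 9 named log2 fold changes, none of them called over all libraries, turned in some settings. Within replicates 4 and 5 Cnn1 was -0.034, Flna 0.20 (DESeq2 0.21), Ppp1r12b -0.013 (-0.0083), Klf4 0.66 (0.49) and Mkl2 -0.11 (-0.13). Without Mgp-KO 4 and 5 Cnn1 was -0.14, Pdgfrb 0.29, Tek -0.38 and Tgfbr2 0.48. Within replicates 1 to 3 Tek was -0.20 (-0.21) and Tgfbr2 0.24 (0.23), and without WT 2 Rgs5 was 0.049, Tek -0.22 and Tgfbr2 0.18. Tgfbr2 was 0.070 with edgeR and 0.077 with DESeq2. With 1 library left out, Cnn1 ranged from -0.090 to 0.30, Flna from -0.12 to 0.082, Pdgfrb from -0.31 to 0.060, Tek from -0.17 to 0.31 and Tgfbr2 from -0.19 to 0.24. Myocd rested on as few as 4 reads, and within replicates 4 and 5, at 4 libraries, no interval of the 10 genes left out 0.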
